A study of Mus musculus with 8 samples.

Results

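Laminins, nidogens and perlecan are the proteins that build and tie together the laminin layer of the basement membrane, and 9 of their genes were followed in RNA of mouse colonic epithelial cells. The genes were Lama3, Lama5, Lamb1, Lamb2, Lamb3, Lamc1, Nid1, Nid2 and Hspg2, 9 of the 35963 gene symbols in the count table. They were listed by gene family and chosen from their CPM in these same libraries, with the difference between the 2 genotypes known. CPM are counts scaled to a common library total, and those printed here adjust each total by a TMM scaling factor. The difference between the genotypes is therefore given for the 9 genes as a description, with no p-value. Counts of calls among them are not read as a result. Cells released from the proximal colon came from mice 4 weeks old, and 8 RNA-seq libraries were made. In the series design, 4 libraries are from Ccna2 fl/fl vil-Cre mice, labelled Ccna2-KO with genotype Ccna2-/-, in which the villin promoter drives the Cre recombinase in intestinal epithelium. The 4 control libraries, labelled WT, are from Ccna2 fl/fl mice, so both groups carry the floxed Ccna2 alleles and no library has the Cre transgene without them. The product of Ccna2, cyclin A2, activates kinases that drive S phase and entry into mitosis. The labels do not say whether each library is a separate mouse, so the p-values given for other genes measure the spread between these libraries.

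Each laminin is a cross-shaped trimer of an alpha, a beta and a gamma chain that polymerises on the basal surface of epithelial cells, where integrins and dystroglycan hold it. Nidogens bridge laminin to the collagen IV network by binding the gamma chain encoded by Lamc1, and perlecan, a large heparan sulfate proteoglycan, binds laminin, nidogen and growth factors. In the intestine the chains come from epithelial and from mesenchymal cells, and nidogens are known mainly as mesenchymal products.

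The promoter windows of Lama5 and Nid1 are shown because these genes had the largest differences between the 2 groups among the 9. They are the RefSeq windows of 250 bases before to 50 bases after the transcription start, in build GRCm38.p6, written 5′ to 3′ on the strand of the gene. The Lama5 window is chr2:180225810-180226109 on the minus strand, and the Nid1 window is chr13:13437352-13437651 on the plus strand. The transcription start used for Nid1 is the start of its gene span given further below. The one used for Lama5 lies slightly inside its gene span, so part of the bases before it belong to that span. Capitals mark matches, on either strand, to the motifs searched: the GC box GGGCGG, the TATA box TATAAA, the AP-1 site TGANTCA, the E2F site TTNGCGC and the TEAD site GGAATG.
Lama5: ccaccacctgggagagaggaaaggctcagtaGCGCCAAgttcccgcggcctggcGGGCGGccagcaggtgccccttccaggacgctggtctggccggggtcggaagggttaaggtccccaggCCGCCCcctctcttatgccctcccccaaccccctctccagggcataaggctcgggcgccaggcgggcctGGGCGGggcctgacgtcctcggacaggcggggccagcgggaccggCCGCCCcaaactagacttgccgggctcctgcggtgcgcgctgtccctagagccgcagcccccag
Nid1: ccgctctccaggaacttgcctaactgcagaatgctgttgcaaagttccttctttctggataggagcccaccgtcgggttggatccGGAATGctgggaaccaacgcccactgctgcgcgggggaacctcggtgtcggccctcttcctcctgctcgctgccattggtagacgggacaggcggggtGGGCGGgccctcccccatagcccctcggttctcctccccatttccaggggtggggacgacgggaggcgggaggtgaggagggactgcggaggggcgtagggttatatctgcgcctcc
The Lama5 window held 4 GC boxes and 1 E2F match, and the Nid1 window held 1 GC box and 1 TEAD match, with no overlap between matches. The GC content was 72.7% for Lama5 and 64.7% for Nid1, against a median of 52.7% over 32851 mouse promoter windows, and the CpG counts were 24 and 20, against a median of 7. Of all those windows, 35.7% held a GC box, 14.7% a TEAD match, 13.6% a TATA box, 7.81% an AP-1 match and 6.36% an E2F match. A match is a description of letters only.

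The libraries held between 27162083 and 34386731 estimated counts. Ccna2 itself was at 18.2, 26.6, 26.6 and 16.2 CPM in Ccna2-KO replicates 1 to 4, and at 54.3, 25.9, 11.9 and 18.3 CPM in control replicates 1 to 4. The 2 groups overlapped, with a log2 fold change of -0.33 ± 0.41 (SE) and an adjusted p of 0.673 by edgeR's quasi-likelihood test. The labels do not name the exons that are flanked by loxP sites, and the counts cover the whole transcript, so this value is no check of the deletion, and the groups are called the libraries labelled Ccna2-KO and control. The labels also give a library number, which lies between 595 and 598 for Ccna2-KO replicate 4 and control replicates 2 to 4 (the low number set) and between 621 and 641 for Ccna2-KO replicates 1 to 3 and control replicate 1 (the high number set). What the numbers stand for is not stated, but they run unevenly across genotypes, and values are given with and without a term for the number set where it matters. With that term the log2 fold change of Ccna2 was -0.71 ± 0.30 (SE), with an adjusted p of 0.133 by the same test.

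Lama5 and Nid1 stood far above control levels in every library labelled Ccna2-KO. The group means of the other 7 genes differed by less than 2-fold. The log2 fold change passed 1 for Lamc1 with the number set in the fit (1.04). It did so for Lamb1 without Ccna2-KO replicate 4 (1.13) or control replicate 4 (1.18). Among those 7, Lamc1 was higher and Nid2 lower with no overlap between the groups, and Lama3, Lamb1, Lamb2, Lamb3 and Hspg2 overlapped. All 9 genes passed the filter on low counts. Across all 15893 genes tested, 12.1% had an adjusted p under 0.05, 6.4% with a higher level in the libraries labelled Ccna2-KO, and 19% had 4 values per group that did not overlap. By the same rules 2 of the 9 were called, both higher, and 4 of the 9 did not overlap. The calls were 6 with the number set in the fit (5 higher and 1 lower), 4 by DESeq2 and 4 without control replicate 1. Over all genes, the calls went from 1924 of 15893 tested to 2892 with the number set and 2949 by DESeq2. Without control replicate 1 they were 4627 of 16247 tested. Nothing is read from these counts, because the genes were chosen with this contrast known. The median log2 fold change of the 9 was 0.37, against -0.01 over all genes tested.

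**Figure D1:**
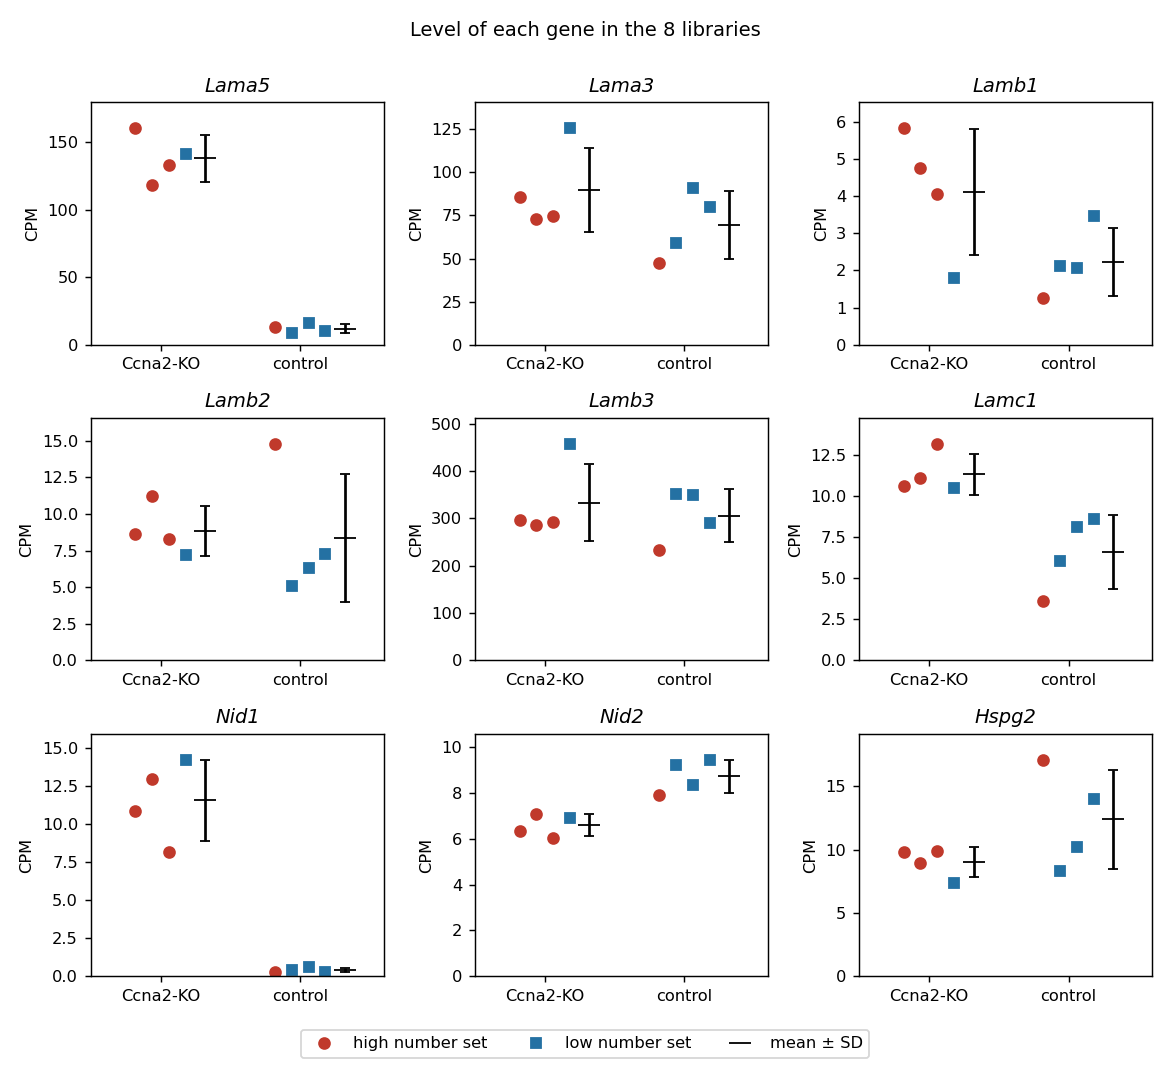
Level of each of the 9 genes in CPM (vertical axes, each from 0) in the 4 libraries labelled Ccna2-KO and the 4 control libraries. Points are libraries, circles for the high and squares for the low number set, and the bar beside each group is the mean ± SD; Lama5 and Nid1 are the panels in which the groups lie farthest apart, with means of 138 CPM (Ccna2-KO) and 11.9 CPM (control) for Lama5.

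Of the alpha chains, Lama5 encodes the chain of the laminin that is the main type in adult epithelial and endothelial basement membranes. It was at 160.2, 118, 133 and 141 CPM in Ccna2-KO replicates 1 to 4, and at 13.3, 8.3, 15.9 and 10.03 CPM in control replicates 1 to 4. Every library labelled Ccna2-KO stood above every control library, and the order held in both number sets. The means were 138 ± 17.6 CPM with Ccna2-KO and 11.9 ± 3.38 CPM in controls (SD, n = 4 each), an 11.6-fold difference and a log2 fold change of 3.54 ± 0.21 (SE). The estimate lay between 3.40 and 3.71 over the 17 other ways of fitting it. It rested on 16533 estimated counts in the libraries labelled Ccna2-KO and 1437 in the controls.

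The count table lists 4 RefSeq transcripts of Lama5. The curated transcript NM_001081171.2 was at 92.6, 87.3, 78.3 and 79.8 CPM in the libraries labelled Ccna2-KO and at 10.2, 6.46, 11.3 and 5.32 CPM in the control libraries. The predicted transcript XM_006500575.2 was at 63, 26.9, 52.2 and 54.2 CPM in the libraries labelled Ccna2-KO and at 2.88, 1.84, 4.56 and 4.59 CPM in the control libraries. Both were higher in every library labelled Ccna2-KO, with log2 fold changes of 3.36 ± 0.26 and 3.83 ± 0.39 (SE). Their shares of the Lama5 counts overlapped between the groups: the curated transcript held 56.6% to 74% in the libraries labelled Ccna2-KO and 53.1% to 77.9% in the control libraries. The predicted transcript XM_017315831.1 was at 1.78 to 6.64 CPM over the libraries labelled Ccna2-KO, at 0.257 CPM in control replicate 1 and listed at 0 in the other 3 control libraries. Its log2 fold change of 5.85 ± 1.39 (SE) became 9.82 when control replicate 1 was left out, a value set by the zeros. The remaining transcript, XM_017315832.1, did not exceed 1.16 CPM in any library and was not fitted. Estimated counts divide reads between transcripts that share most of their sequence, so the split is less certain than the sum.

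**Figure D2:**
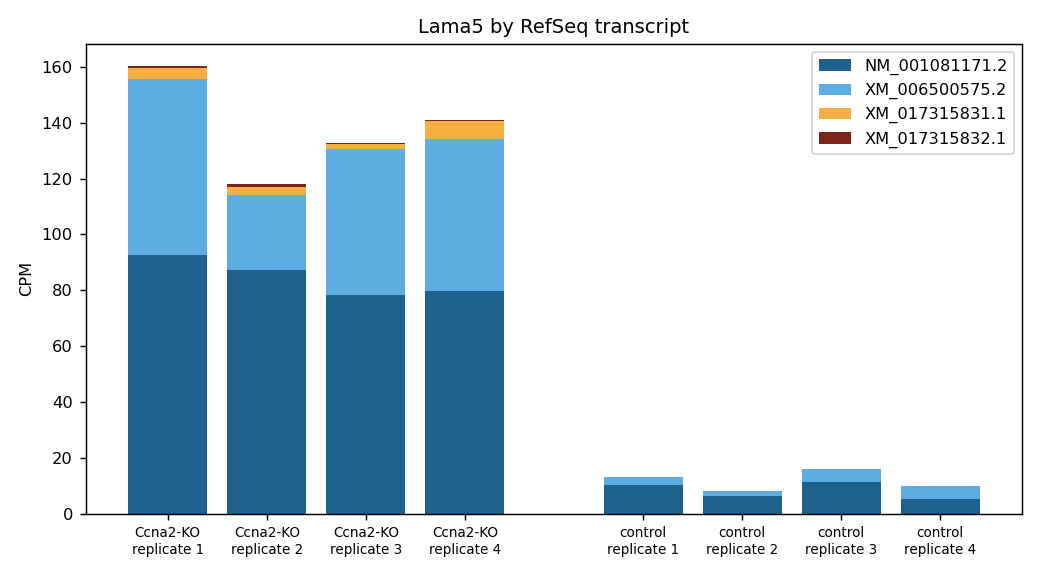
Lama5 level in CPM (vertical axis, from 0) in each of the 8 libraries (horizontal axis), stacked by the 4 RefSeq transcripts in the table. The 4 bars of the libraries labelled Ccna2-KO reach 118 to 160.2 CPM and the 4 control bars 8.3 to 15.9 CPM, and in both groups the curated transcript makes up over 53% of the bar.

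Lama3 encodes the alpha chain of the laminin that anchors hemidesmosomes. It was at 85.6, 73.2, 74.5 and 126 CPM in Ccna2-KO replicates 1 to 4, and at 47.3, 59, 90.7 and 80.1 CPM in control replicates 1 to 4. The groups overlapped, but within each number set the libraries labelled Ccna2-KO lay above the controls: 73.2 to 85.6 CPM against 47.3 CPM in the high set, and 126 CPM against 59 to 90.7 CPM in the low set. The log2 fold change was 0.37 ± 0.24 (SE), 0.17 without Ccna2-KO replicate 4, 0.23 without control replicate 1 and 0.72 ± 0.15 (SE) with a term for the number set. Of its 9 listed transcripts, XM_006525689.3 held the largest share, 54.2% to 65.3% in the libraries labelled Ccna2-KO and 56.2% to 72% in the control libraries.

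Among the beta chains, Lamb3 is the partner of Lama3 in hemidesmosomal laminin and had the highest level per kilobase of the 9 genes. Lamb3 was at 298, 287, 293 and 457 CPM in Ccna2-KO replicates 1 to 4, and at 234, 351, 349 and 290.2 CPM in control replicates 1 to 4. Ccna2-KO replicate 4 was the highest of the 8 libraries, and without it the log2 fold change of 0.13 ± 0.19 (SE) became -0.06. With the number set in the fit the log2 fold change of Lamb3 was 0.40 ± 0.10 (SE). Its transcript NM_001277928.1 was listed at 0, 0, 2.26 and 0 CPM in the libraries labelled Ccna2-KO and at 3.16, 9.14, 18.95 and 4.46 CPM in the control libraries, no more than 5.43% of Lamb3 in any library.

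Lamb1 encodes the beta chain found in most embryonic and many adult epithelial basement membranes. Lamb1 was at 5.83, 4.77, 4.06 and 1.80 CPM in Ccna2-KO replicates 1 to 4, and at 1.25, 2.12, 2.06 and 3.45 CPM in control replicates 1 to 4. The direction was opposite in the 2 number sets: 4.06 to 5.83 CPM over the libraries labelled Ccna2-KO of the high set stood above 1.25 CPM in the control library, and 1.80 CPM in the low set stood below 2.06 to 3.45 CPM. The log2 fold change was 0.89 ± 0.39 (SE), and 0.71 ± 0.55 (SE) with the number set in the fit.

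Lamb2, the alternative beta chain known from muscle, kidney and vessel basement membranes, also behaved differently in the 2 sets. Lamb2 was at 8.63, 11.2, 8.30 and 7.22 CPM in Ccna2-KO replicates 1 to 4, and at 14.8, 5.11, 6.34 and 7.24 CPM in control replicates 1 to 4. Control replicate 1 was the highest library and control replicates 2 and 3 were the lowest. In the high set the libraries labelled Ccna2-KO lay below the control library, and in the low set the library labelled Ccna2-KO lay within the range of the controls. The log2 fold change was 0.08 ± 0.32 (SE), 0.51 without control replicate 1 and -0.24 with the number set in the fit, and it was -0.05 when Ccna2-KO replicate 2 was left out, -0.09 with control replicate 2 left out and -0.03 with control replicate 3 left out.

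Lamc1, the gamma chain that carries the nidogen-binding site, was at 10.6, 11.1, 13.2 and 10.5 CPM in Ccna2-KO replicates 1 to 4, and at 3.62, 6.07, 8.12 and 8.60 CPM in control replicates 1 to 4. All 4 libraries labelled Ccna2-KO lay above all 4 control libraries. The means were 11.3 ± 1.25 CPM with Ccna2-KO and 6.60 ± 2.27 CPM in controls (SD, n = 4 each), a 1.72-fold difference. The log2 fold change of 0.78 ± 0.25 (SE) was 0.58 without control replicate 1, the lowest library, and 1.04 ± 0.28 (SE) with the number set in the fit.

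The 2 nidogens differed in opposite directions. Nid1 was at 10.9, 13, 8.15 and 14.2 CPM in Ccna2-KO replicates 1 to 4, and at 0.279, 0.399, 0.584 and 0.303 CPM in control replicates 1 to 4. These levels came from 322, 433, 261 and 362 estimated counts in the libraries labelled Ccna2-KO and from 8, 10, 19 and 10 in the control libraries, so the control level rests on few counts. The means were 11.5 ± 2.66 CPM with Ccna2-KO and 0.391 ± 0.139 CPM in controls (SD, n = 4 each), a 29.5-fold difference and a log2 fold change of 4.86 ± 0.30 (SE), between 4.73 and 5.13 over the 17 other ways of fitting it. Nid1 has 1 transcript in the table.

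Nid2, the second nidogen, was at 6.34, 7.08, 6.05 and 6.90 CPM in Ccna2-KO replicates 1 to 4, and at 7.91, 9.22, 8.36 and 9.42 CPM in control replicates 1 to 4. All 4 libraries labelled Ccna2-KO lay below all 4 control libraries, with little spread in either group. The means were 6.59 ± 0.478 CPM with Ccna2-KO and 8.73 ± 0.712 CPM in controls (SD, n = 4 each), a log2 fold change of -0.40 ± 0.13 (SE). Per kilobase of transcript, Nid1 averaged 1.90 and Nid2 1.35 CPM in the libraries labelled Ccna2-KO, against 0.0642 and 1.79 CPM in the control libraries, so the order of the 2 nidogens differed between the groups.

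Hspg2, which encodes perlecan, was at 9.84, 8.94, 9.89 and 7.37 CPM in Ccna2-KO replicates 1 to 4, and at 17.1, 8.3, 10.2 and 14 CPM in control replicates 1 to 4. The groups overlapped through control replicate 2, and within each number set the libraries labelled Ccna2-KO lay below the control libraries. The log2 fold change was -0.46 ± 0.23 (SE), -0.26 without control replicate 1 and -0.70 ± 0.18 (SE) with the number set in the fit.

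**Figure D3:**
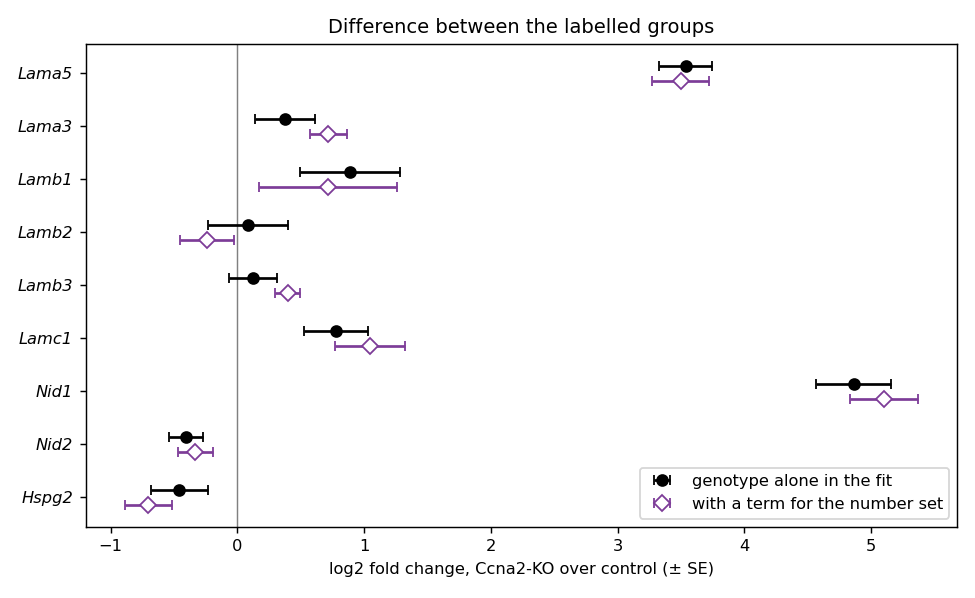
Log2 fold change of the 9 genes, Ccna2-KO over control (horizontal axis), as estimates ± SE from all 8 libraries. Filled circles have genotype alone in the fit and open diamonds also a term for the number set; Lama5 and Nid1 lie at 3.54 and 4.86 and move little with the term, and Lamb2 lies at 0.08 without the term and at -0.24 with it.

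Levels between the genes were compared only per length, as CPM per kilobase of a matched transcript. In the libraries labelled Ccna2-KO the order of the means was Lamb3 at 82.3, Lama5 at 12.1, Lama3 at 8.51, Nid1 at 1.90, Lamb2 at 1.57, Lamc1 at 1.49, Nid2 at 1.35, Lamb1 at 0.711 and Hspg2 at 0.636 CPM per kilobase. In the control libraries it was Lamb3 at 75.4, Lama3 at 6.57, Nid2 at 1.79, Lamb2 at 1.49, Lama5 at 1.04, Hspg2 at 0.874, Lamc1 at 0.866, Lamb1 at 0.384 and Nid1 at 0.0642 CPM per kilobase. Lama5 was above Lama3 in the means of the libraries labelled Ccna2-KO and below it in those of the control libraries. In the libraries labelled Ccna2-KO the ranges of Lama5 and Lama3 overlapped, as did those of Nid1, Lamb2, Lamc1 and Nid2 and those of Lamb1 and Hspg2. In the control libraries each gene from Nid2 down to Lamb1 overlapped with its neighbours in the order, and Lamb3, Lama3 and Nid1 did not. The length was that of the longest matched transcript of each gene, which need not be the form with the most counts. The value of Lama3 per kilobase is a low estimate for shorter forms. The order of Lama3 and Lama5 was not computed for other forms.

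The genes also differ in where reads could be shared. In the GENCODE annotation, exons of Nid1 overlap 143 bases of the antisense gene Gm48682, exons of Nid2 overlap 437 bases of Rtraf on the opposite strand, and exons of Lama3 overlap 197 bases of the antisense gene Gm29200. The sources used here do not say whether the libraries kept strand, so reads in these stretches cannot be told apart. Lama5 spans chr2:180176373-180225904 on the minus strand and Nid1 chr13:13437602-13512275 on the plus strand in GRCm38.p6.

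The number set was tested as high minus low with genotype in the same fit. The rule for the genes did not use this contrast, but the sets were themselves drawn up with earlier results of these libraries known. Lamb2 was higher in the high set, with a log2 difference of 0.82 ± 0.21 (SE) and an adjusted p of 0.0253, and Lama3 and Lamb3 were lower in the high set, with log2 differences of -0.70 ± 0.15 (SE, adjusted p = 0.0130) and -0.57 ± 0.10 (SE, adjusted p = 0.00902). Thus 3 of the 9 genes passed, where 22.3% of all genes tested passed. Lama5 and Nid1 did not pass, with log2 differences of 0.08 ± 0.21 and -0.46 ± 0.26 (SE) and adjusted p of 0.806 and 0.217. The contrast rests on control replicate 1 against the other control libraries and on Ccna2-KO replicate 4 against the other libraries labelled Ccna2-KO. Without control replicate 1 none of the 3 passed by the same edgeR test, with adjusted p of 0.137 for Lama3, 0.459 for Lamb2 and 0.0583 for Lamb3, and only 86 genes passed in all. Lamb2 also missed the threshold without Ccna2-KO replicate 2 (adjusted p = 0.0551) and when control replicate 3 was left out (adjusted p = 0.0569).

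The genes whose log2 CPM followed Lama5 most closely over the 8 libraries, out of 11050 compared, were Thpo, Crip2, Tgfbr2, Atp6v0e2 and Ckb, with Pearson's r between 0.987 and 0.995. Those that followed Nid1 most closely were Cdc7, Arhgap35, Agps, Lrrc8b and Tpm2, with r between 0.986 and 0.994. The 8 libraries fall into 2 groups for these genes, so the r mostly repeats the group difference. With each group centred on its own mean, r was between 0.243 and 0.818 for the genes nearest to Lama5 and between 0.596 and 0.788 for those nearest to Nid1. Lama5 and Nid1 had r = 0.984 with each other, and 0.242 within groups.

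Other genes of the basement membrane were taken from lists of 87 genes, of which 65 passed the filter on low counts. Of these 65, 10 rose and 6 fell in the libraries labelled Ccna2-KO, which is 24.6%, beside 12.1% of all genes tested. The median log2 fold change of the 65 was 0.05. The lists were chosen with earlier results of these data known, so these shares are a description. The 16 calls became 9 when Ccna2-KO replicate 2 was left out and 10 when control replicate 3 was. Over all genes, the 1924 calls became 1031 and 1221 when the same libraries were left out. With the number set in the fit 10 of the 65 rose and 10 fell, and by DESeq2 11 rose and 11 fell. The calls over all genes were then 2892 and 2949. Of the other laminin chains and netrins, 2 of 7 were tested and 1 fell. Ntn4, a netrin that binds laminin gamma chains and can disrupt laminin polymers, was at 2.29, 2.82, 2.78 and 1.29 CPM in the libraries labelled Ccna2-KO and at 6.03, 8.22, 7.38 and 7.36 CPM in the control libraries. Ntn4 was lower in every library labelled Ccna2-KO than in any control library, with a log2 fold change of -1.65 ± 0.25 (SE, adjusted p = 0.00417). Lama1, the embryonic alpha chain, had no counts in any library.

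Of the 10 basement membrane collagens, 4 were tested and 1 rose. Collagen IV, to which nidogens tie laminin, was scarce: the means of Col4a1 were 0.411 ± 0.223 CPM in the libraries labelled Ccna2-KO and 0.539 ± 0.396 CPM in the control libraries (SD, n = 4 each), and the means of Col4a2 to Col4a6 were lower than that in each group. Col18a1, whose product yields endostatin, rose by 1.29 ± 0.34 on the log2 scale (SE, adjusted p = 0.0389). It missed the threshold with the number set in the fit (adjusted p = 0.0574) and when any 1 of Ccna2-KO replicates 1 to 3 or control replicates 2 to 4 was left out, with an adjusted p of up to 0.110.

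Of 19 other basement membrane proteins, 15 were tested, 5 rose and 2 fell. Fbln1, a fibulin that binds nidogen and laminin, was at 12.9, 16.1, 17.8 and 14.5 CPM in the libraries labelled Ccna2-KO and at 1.92, 1.16, 0.953 and 1.06 CPM in the control libraries. The groups were far apart, with a log2 fold change of 3.59 ± 0.24 (SE, adjusted p = 9.8e-05). Npnt, nephronectin, an integrin ligand, had means of 1.503 ± 0.385 CPM with Ccna2-KO and 0.132 ± 0.0917 CPM in controls (SD, n = 4 each), a log2 fold change of 3.52 ± 0.45 (SE, adjusted p = 0.00188). Hmcn2, a hemicentin, had 113 estimated counts in the libraries labelled Ccna2-KO and 6 in the control libraries, a log2 fold change of 4.11 ± 0.53 (SE, adjusted p = 0.00189), or 5.09 without control replicate 3, which held 4 of those 6 counts. Papln and Frem2 rose as well, by 1.68 ± 0.31 and 1.36 ± 0.32 on the log2 scale (SE, adjusted p = 0.00927 and 0.0257). The calcium-binding proteins Smoc1 and Smoc2 fell, with log2 fold changes of -2.18 ± 0.51 and -2.64 ± 0.57 (SE, adjusted p = 0.0247 and 0.0177). With the number set in the fit the log2 fold change of Smoc2 was -3.45 ± 0.23 (SE). Smoc2 ranged over 0.549 to 2.15 CPM with Ccna2-KO and over 4.63 to 20.5 CPM in controls. Agrn, which like perlecan carries heparan sulfate, was at 122 ± 31.5 CPM in the libraries labelled Ccna2-KO and at 125 ± 47 CPM in the control libraries (SD, n = 4 each) and did not pass (adjusted p = 0.954).

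All 11 laminin receptors were tested, none rose and 1 fell. By edgeR with no adjustment of p and by DESeq2 none rose and 2 fell. Sdc4, a syndecan that carries heparan sulfate on the cell surface, was at 124, 110.3, 123 and 189.6 CPM in the libraries labelled Ccna2-KO and at 216, 208, 224 and 302 CPM in the control libraries. The groups did not overlap, and Sdc4 fell by 0.80 ± 0.19 on the log2 scale (SE, adjusted p = 0.0278). It missed the threshold when any 1 of Ccna2-KO replicates 1 to 3 or control replicates 3 and 4 was left out, with an adjusted p of up to 0.0893. The receptors of the hemidesmosome were abundant: Itga6 averaged 289 ± 7.05 and Itgb4 343 ± 47.6 CPM in the libraries labelled Ccna2-KO, against 251 ± 50.8 and 297 ± 28.7 CPM in the control libraries (SD, n = 4 each). Neither passed the test, with adjusted p of 0.449 and 0.340, and nor did Dag1, dystroglycan, with an adjusted p of 0.415.

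Of 25 genes of matrix assembly, processing and turnover, 18 were tested, 3 rose and 1 fell. Mmp7, matrilysin, a protease that cleaves several basement membrane proteins, was at 37.6, 21, 53.2 and 8.47 CPM in the libraries labelled Ccna2-KO and at 1.05, 1.04, 1.23 and 0.818 CPM in the control libraries. Every library labelled Ccna2-KO was above every control, with a wide spread among them, and the log2 fold change was 4.86 ± 0.55 (SE, adjusted p = 0.00107), or 3.99 ± 0.55 (SE, adjusted p = 0.00350) with the number set in the fit. Bmp1, the protease that trims procollagens, was at 4.62, 3.72, 2.15 and 3.80 CPM in the libraries labelled Ccna2-KO and at 9.65, 14.8, 17.2 and 13.9 CPM in the control libraries. It was lower throughout, with a log2 fold change of -1.96 ± 0.26 (SE, adjusted p = 0.00207). Sulf2, which removes sulfate groups from heparan sulfate outside the cell, rose by 1.02 ± 0.17 on the log2 scale (SE, adjusted p = 0.00630). Plat, tissue plasminogen activator, rose by 2.05 ± 0.36 on the log2 scale (SE, adjusted p = 0.00743). The calls of Plat, Papln, Frem2, Smoc1 and Smoc2 were not recomputed one library at a time.

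All 15 enzymes that build heparan sulfate chains, such as those of perlecan, were tested, 1 rose and 1 fell. Xylt2, which starts the chain with xylose, fell by 0.65 ± 0.15 on the log2 scale (SE, adjusted p = 0.0212). It missed the threshold when either of Ccna2-KO replicates 1 and 2 or either of control replicates 2 and 3 was left out, with an adjusted p of up to 0.0730. Hs6st2, a sulfotransferase, rose by 1.21 ± 0.28 on the log2 scale (SE, adjusted p = 0.0222), from 66 estimated counts in the libraries labelled Ccna2-KO and 28 in the control libraries. It missed the threshold with no filter on low counts (adjusted p = 0.0503) and when Ccna2-KO replicate 1 or 2 or control replicate 3 was left out, with an adjusted p of up to 0.0770.

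**Figure D4:**
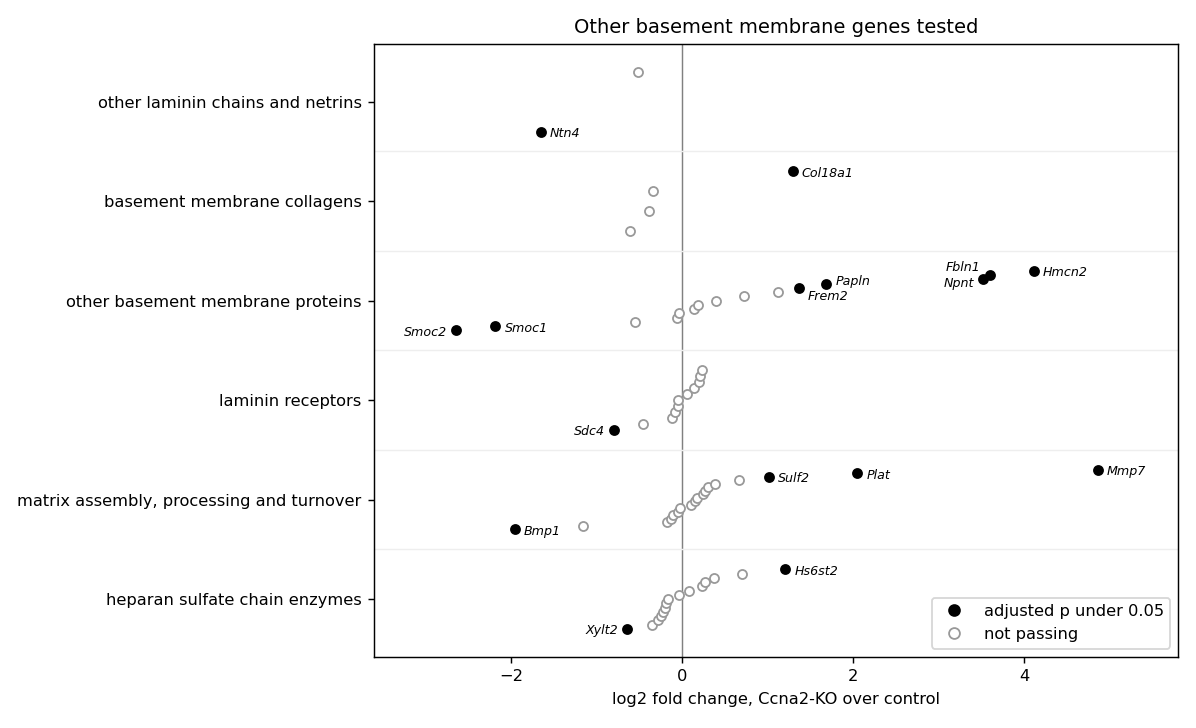
Log2 fold change, Ccna2-KO over control (horizontal axis), of the 65 other basement membrane genes tested, in 6 lists (rows). Filled points are genes with an adjusted p under 0.05, named beside the point; 10 lie to the right of 0 and 6 to the left, and Mmp7 is the farthest right at 4.86.

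Basement membrane proteins are also made by cells beneath the epithelium, so marker genes of those cells were read beside the results. The epithelial markers summed to 17690 to 24040 CPM over the libraries labelled Ccna2-KO and to 18430 to 20870 CPM in the control libraries, and 0 of 9 passed edgeR's test. With no adjustment of p, 1 of the 9 was under 0.05, and 0 passed by DESeq2 or limma voom. Krt8, the most abundant of them, ranged over 8319 to 11680 CPM with Ccna2-KO and over 8307 to 9753 CPM in controls, and Krt19 over 3324 to 4727 CPM with Ccna2-KO and 3497 to 4150 CPM in controls. The fibroblast markers summed to 11.1 to 31.1 CPM over the libraries labelled Ccna2-KO and to 9.13 to 21.6 CPM in the control libraries, and of 6 tested Thy1 and Fbn1 fell and none rose, where 1 was higher by DESeq2 and by edgeR's unadjusted p. With the number set in the fit Fbn1 missed the threshold (adjusted p = 0.0661). The other 4 had log2 fold changes above 0 without passing, 0.81 ± 0.39 for Col1a1, 0.95 ± 0.50 for Col1a2, 1.45 ± 0.51 for Col3a1 and 0.82 ± 0.45 for Dcn (SE). The log2 fold change of Thy1 was -2.32 ± 0.50, beside -2.91 ± 0.45 for Cd3e and -2.84 ± 0.42 for Cd3g of the leukocyte markers (SE). Which cells the Thy1 counts came from was not tested. The leading fibroblast markers were Dcn, at 4.55 to 17.7 CPM with Ccna2-KO and 3.27 to 8.61 CPM in controls, and Col3a1, at 1.97 to 7.28 CPM with Ccna2-KO and 0.758 to 2.49 CPM in controls. The sums of the smooth muscle markers were 3.09 to 5.02 CPM over the libraries labelled Ccna2-KO and 2.59 to 5.66 CPM in the control libraries. Of these, Synpo2 was at 1.65 to 3.53 CPM with Ccna2-KO and 2.24 to 4.797 CPM in controls, and Des, at 1.11 to 1.69 CPM with Ccna2-KO and 0.16 to 0.545 CPM in controls, rose. The part of these cells in the differences of the 9 genes was not tested.

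The endothelial markers summed to 2.71 to 4.53 CPM over the libraries labelled Ccna2-KO and to 3.07 to 5.85 CPM in the control libraries, with Pecam1, at 1.25 to 1.48 CPM with Ccna2-KO and 2 to 3.48 CPM in controls, the 1 of 3 tested that passed. Vwf was at 0.863 to 1.59 CPM with Ccna2-KO and 0.519 to 2.16 CPM in controls. The pericyte markers summed to 8.02 to 10.3 CPM over the libraries labelled Ccna2-KO and to 9.39 to 14.9 CPM in the control libraries, led by Pdgfrb and Cspg4. Of 3 tested Notch3 rose. Pdgfrb and Cspg4 lay the other way without passing, with log2 fold changes of -0.46 ± 0.19 and -0.89 ± 0.27 (SE), and Cspg4 did not overlap between the groups. The sums of the enteric glia and neuron markers were 1.48 to 1.78 CPM over the libraries labelled Ccna2-KO and 1.08 to 2.09 CPM in the control libraries, led by Ret and S100b, with Sox10 at 0 in all. Those of the mesothelial markers were 2.67 to 12.4 CPM over the libraries labelled Ccna2-KO and 2.06 to 5.04 CPM in the control libraries, led by Msln and Upk3b. The leukocyte markers summed to 13.3 to 21.9 CPM over the libraries labelled Ccna2-KO and to 22.8 to 80.3 CPM in the control libraries, without overlap, and 4 of 8 tested fell: Ptprc, at 2.19 to 5.45 CPM with Ccna2-KO and 7.07 to 38.8 CPM in controls, Cd8a, at 1.75 to 3.73 CPM with Ccna2-KO and 2.47 to 15.5 CPM in controls, Cd3e and Cd3g. The other 4 tested, Lyz2, Csf1r, Ms4a1 and Itgam, did not pass, with log2 fold changes of -0.38 ± 0.38, -0.07 ± 0.42, -0.05 ± 0.31 and 0.21 ± 0.25 (SE). With the number set in the fit 3 of the 8 were lower, and Cd8a missed the threshold (adjusted p = 0.147). The log2 fold change of Ptprc was then -1.74 ± 0.50, against -2.63 ± 0.51 without the term (SE). In the high set the leukocyte sums were 13.3 to 21.9 CPM with Ccna2-KO and 22.8 CPM in the control library. The part of the lower leukocyte markers in the differences of the 9 genes was not tested. In bulk RNA, fewer cells of a type and less RNA per cell cannot be told apart.

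**Figure D5:**
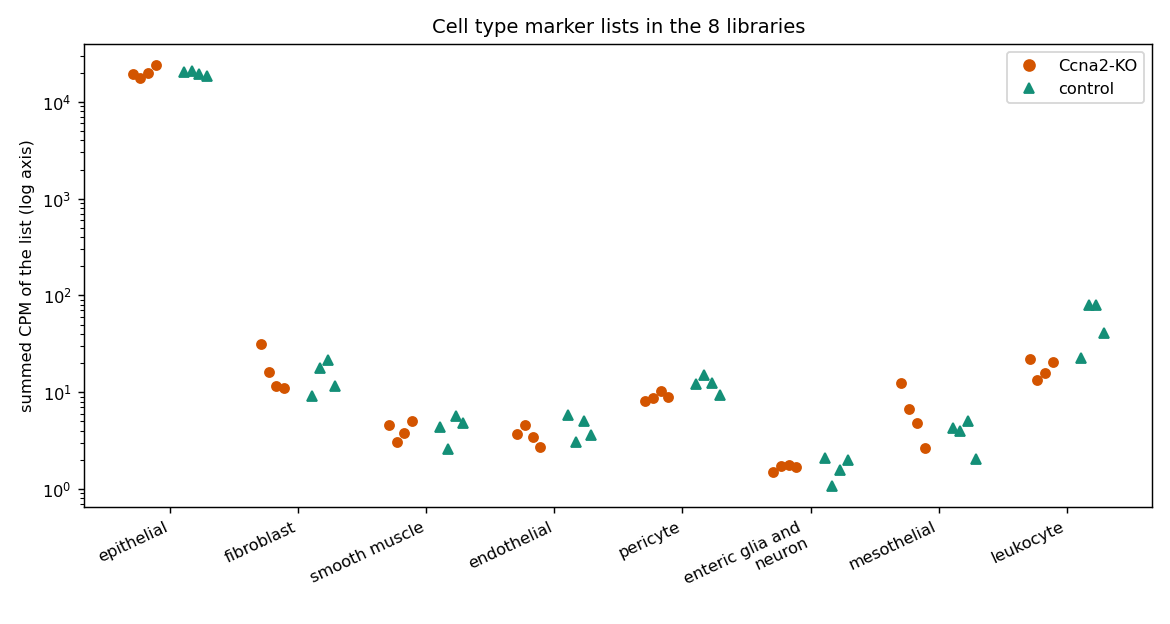
Summed CPM of 8 lists of cell type markers (vertical log axis) in the 4 libraries labelled Ccna2-KO (circles) and the 4 control libraries (triangles). The epithelial sums lie between 17690 and 24040 CPM over both groups, and the leukocyte list is the one whose groups do not overlap.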

How the data were processed

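The deposited table gives, per the labels' processing notes, kallisto's estimated counts for 107193 transcripts in 8 libraries, from reads set against mouse build GRCm38 (mm10). The sources used here do not give the kallisto version, the read trimming or the strand setting. Estimated counts were summed per gene symbol and rounded. The 687 transcripts without a symbol, 3.19% to 5.51% of the counts of a library, were left out. All 15893 genes kept by edgeR's filterByExpr (edgeR 4.0.16, R 4.3.3) were fitted with TMM scaling and a robust quasi-likelihood test, with Benjamini-Hochberg adjustment and a threshold of 0.05. CPM were scaled by TMM factors. The procedure was run on simulated data with genotype differences only and no difference between the number sets. That run therefore says nothing of how the uneven number sets affect the calls. Alternatives were other scalings, other filters, DESeq2 1.42.0, limma 3.58.1 voom, a replicate block, a term for the number set and leaving out each library. A few listed genes are not reported here and were taken out of the lists before counting. The members, the gene lists and the number sets were chosen with earlier results of these data known.

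The genes named were the 9 members, Ccna2, up to 3 called genes of each list with the smallest adjusted p, up to 2 genes of each marker list by level and the 5 genes most like Lama5 or Nid1. The other called genes of the lists, the receptors, collagen IV chains and Agrn were named after their values were seen. Replicate numbers are shared by the groups, but the correlation of the deviations of libraries with the same number was -0.07, -0.35, -0.26 and 0.15, so they do not pair the libraries. No libraries agreed within sampling noise (chi-square per degree of freedom of 18.25 or more for each pair), so all 8 were counted. Gene positions, exons and transcript lengths are from GENCODE M21 and RefSeq, both on GRCm38. A promoter window was found for 6 of the 9 genes.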

Additional observations from a re-analysis of the deposited data

Results flagged for a closer look

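Each group of 4 libraries was looked at on the scale of log2 CPM. A library was listed when its gap to the nearest other library, divided by the range of the group, passed Dixon's 95% critical value for 4 values. Of 42 groups looked at, 1 passed, where chance gives about 1 in 20. Lamb3 in Ccna2-KO replicate 4 was at 457 CPM, far above the other 3 libraries labelled Ccna2-KO.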

How the results depend on the processing

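The number of genes called between the libraries labelled Ccna2-KO and the control libraries was 1924. It was 2949 by DESeq2, 2892 with a term for the number set and 987 with a replicate block, and it lay between 972 and 4627 when single libraries were left out, the lowest when Ccna2-KO replicate 3 and the highest when control replicate 1 was dropped. It also fell by over 1.5 times without Ccna2-KO replicate 1 or 2 or control replicate 2, 3 or 4. The 16 calls among the other basement membrane genes lay between 9 and 21 when single libraries were left out and were 13 with the replicate block. They were 20 with a term for the number set and 22 by DESeq2. The 3548 genes that differed between the number sets lay between 86 (control replicate 1 dropped) and 5704 (Ccna2-KO replicate 4 dropped), and were 2199 when Ccna2-KO replicate 2 and 2093 when control replicate 3 was dropped. The causes were not tested. Lama5 and Nid1 kept their direction under every alternative run. Of the 9 members and the 11 called genes refitted one by one, Lamb2 and Lamb3 changed direction, as given above. Neither was called with genotype alone in the fit. Lamb3 was among the 6 members called with a term for the number set. With the replicate block, which has no basis in the labels, Xylt2 and Hs6st2 missed the threshold (adjusted p = 0.0615 and 0.0875). No value could be had for Hmcn2 and Hs6st2 with a minimum of 1 CPM in all samples of a group.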

Other observations

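The neighbours of Lama5 and Nid1 on the chromosome were looked up after the values of these genes had been seen, and the 7 that were tested had an adjusted p of 0.111 or more by edgeR. Gm7040, next to Nid1, was not tested. Next to Lama5, Osbpl2 averaged 93.2 ± 6.21 CPM in the libraries labelled Ccna2-KO and 93.3 ± 3.25 CPM in the control libraries, and Adrm1 averaged 83.3 ± 8.62 CPM in the libraries labelled Ccna2-KO and 77.9 ± 8.34 CPM in the control libraries (SD, n = 4 each). Rps21 and Cables2, on the other side, had log2 fold changes of -0.14 ± 0.28 and -0.07 ± 0.10 (SE). Next to Nid1, Gpr137b averaged 25.7 ± 8.89 CPM in the libraries labelled Ccna2-KO and 13.7 ± 5.59 CPM in the control libraries (SD, n = 4 each), with an adjusted p of 0.111. Lyst and Gng4 had log2 fold changes of -0.41 ± 0.21 and -0.85 ± 0.42 (SE), with adjusted p of 0.238 and 0.241.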
